A study of Homo sapiens with 32 samples.

Results

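The SMAD feedback inhibitors are genes that transforming growth factor beta (TGF-beta) signalling can switch on and whose products then hold that signalling back. The members were chosen by symbol: PMEPA1, SMAD7, SMAD6, SKIL, SKI, SMURF1, SMURF2, BAMBI and, as the transducer they act on, SMAD3. They are 9 of the 19775 genes tested and were read by 30 of the 54675 probe sets on the array. RNA was measured on Affymetrix arrays in A549 and H460a, both established human lung cancer lines. Cells of each line received vehicle or 2 µM RO4929097, an inhibitor of gamma-secretase, the protease that cuts Notch receptors and so releases their active fragment. Groups were collected at 6 h and at 24 h, and each of the 8 groups held 4 arrays. The labels name no engineered change in either line, and the series text writes the second line as H460. The labels do not say whether the 4 replicates were separate cultures, so the p-values measure only the spread between these samples.

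TGF-beta ligands bind a pair of receptor kinases at the cell surface, which phosphorylate SMAD2 and SMAD3. Phosphorylated SMADs join SMAD4, enter the nucleus and act on target genes, several of which encode inhibitors of the same pathway. In lung epithelium the pathway is known for restraining growth and for driving the shift from epithelial to mesenchymal features.

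The genes act at successive steps of the pathway. BAMBI is a decoy receptor that lacks a kinase domain. SMAD7 and SMAD6 are the inhibitory SMADs: SMAD7 blocks receptors and recruits ubiquitin ligases to them, and SMAD6 acts mainly on the branch driven by bone morphogenetic proteins (BMPs). SMURF1 and SMURF2 are ubiquitin ligases that mark SMADs and receptors for destruction. PMEPA1 is a membrane protein that binds SMAD2 and SMAD3 and keeps them from the receptor. SKI and SKIL (SnoN) are nuclear corepressors that bind SMAD complexes on DNA.

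Promoter sequence was searched because PMEPA1, SMAD7, SKIL and SMAD3 were all lower in A549 after RO4929097, and the motifs chosen were those known for SMADs, for the Notch cofactor RBPJ and for AP-1. RefSeq windows on build GRCh38.p14, running from 250 bases before to 50 bases after a start, were held for 8 of the 9 genes, in 17 windows, with none used for SKI. PMEPA1 lies at chr20:57648396-57711472 on the minus strand. The first 2 stretches below come from 2 of its starts, both inside the span of the gene, and the last from SMAD6 at chr15:66702236-66782849 on the plus strand. Capitals mark the RBPJ core TGGGAA, the CAGA box CAGACA and the SMAD palindrome GTCTAGAC.
PMEPA1, chr20:57710027-57710056, minus strand: cccccgcgcggTGGGAAccggcagccccgt
PMEPA1, chr20:57710674-57710703, minus strand: cccttgggcagCAGACAatgggtgtggatt
SMAD6, chr15:66702176-66702235, plus strand: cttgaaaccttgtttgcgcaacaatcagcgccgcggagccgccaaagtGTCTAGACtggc

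Counted on both strands, the palindrome was in 1 of the 17 windows, that of SMAD6, and in 0.202% of all 35116 promoter windows. The CAGA box was in 3 of 17 windows (PMEPA1, SMAD3 and SMURF2) against 16.9% of all windows. The RBPJ core was in 4 of 17 windows (PMEPA1 in 2, SMAD3 and SMAD7 in 1 each) against 24.0%, and the AP-1 site TGACTCA was in 1 of 17 (SMAD3) against 4.95%. For the CAGA box and the RBPJ core the members' shares, 17.6% and 23.5%, lay near those of all promoters. None of these motifs holds the letters of another. A match describes these letters in this window and is not a bound site.

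Values below are log2 intensity, differences are log2(RO4929097) minus log2(vehicle) unless stated, ± is the SD for a group mean and the SE for a difference, and a gene passed where limma's adjusted p over all 19775 genes was under 0.05. Of the epithelial keratins, KRT8 and KRT18 were bright in both lines (medians of 13.03 to 14.76 over 16 arrays), and KRT19 had a median of 6.76 in A549 and 13.67 in H460a. CDH1, which encodes E-cadherin, had a median of 10.36 in A549 and 4.64 in H460a, and EPCAM was low in both (medians 5.61 and 4.72). Means of 6 genes not expected in these cells, used as a guide to background, ran from 5.23 to 7.03. Of 3 leukocyte and 3 endothelial genes, PTPRC, CD3E (itself 1 of the 6), CDH5 and VWF had medians of 4.86 to 6.87 and lay at or under that range, and CD14 (8.79 in A549 and 8.64 in H460a) and PECAM1 (7.59 and 7.29) lay above it. The Notch target HES1 fell by 1.63 at 6 h and fell by 2.18 at 24 h in A549, and in H460a its differences were -0.35 and -0.29, neither past the threshold. The H460a group means of HES1, 6.15 to 6.69, lay within the background range. In A549 at these times HEY1 fell by 0.41 and by 0.62 and HES4 by 0.46 and by 0.50. NRARP did not pass there (-0.05 and 0.19), and none of these 3 passed in H460a. Their H460a differences were -0.25 and -0.30 for HEY1, 0.14 and -0.19 for HES4 and -0.01 and 0.08 for NRARP. For HEY1 all treated H460a arrays lay below all vehicle arrays at both times, where 2.39% and 1.56% of all genes did so. At 24 h HES4 did so too, and NRARP lay wholly above. Mean intensity ran from 468 to 496 on the A549 vehicle arrays at 6 h. On the 4 A549 arrays with RO4929097 at 6 h it was 496, 531, 589 and 583, and on the other 24 arrays 570 to 613. Differences of the 9 genes in A549 at 6 h are therefore also given in other settings, mostly quantile normalization or without the brighter arrays. Their changes with time in A549 vehicle are also given after quantile normalization. The Notch targets, the other pathway genes and the levels of A549 against H460a are given in the deposited scaling only. H460a vehicle array 3 at 6 h had an actin 3'-5' difference of 2.19, against 0.14 to 0.42 on the others. The RNA came from whole cultures, so fewer cells expressing a gene and less RNA per cell cannot be told apart.

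PMEPA1 was the member that responded most to RO4929097, and it did so in A549. In A549 vehicle its 4 arrays read 12.39, 12.50, 12.36 and 12.32 at 6 h, and with RO4929097 they read 11.81, 11.71, 11.86 and 11.86. At 24 h the vehicle arrays read 12.44, 12.60, 12.50 and 12.42 and the treated arrays 10.66, 10.85, 10.73 and 10.75. Every treated array lay below every vehicle array at both times, and the treated arrays at 24 h lay below those at 6 h.

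**Figure D1:**
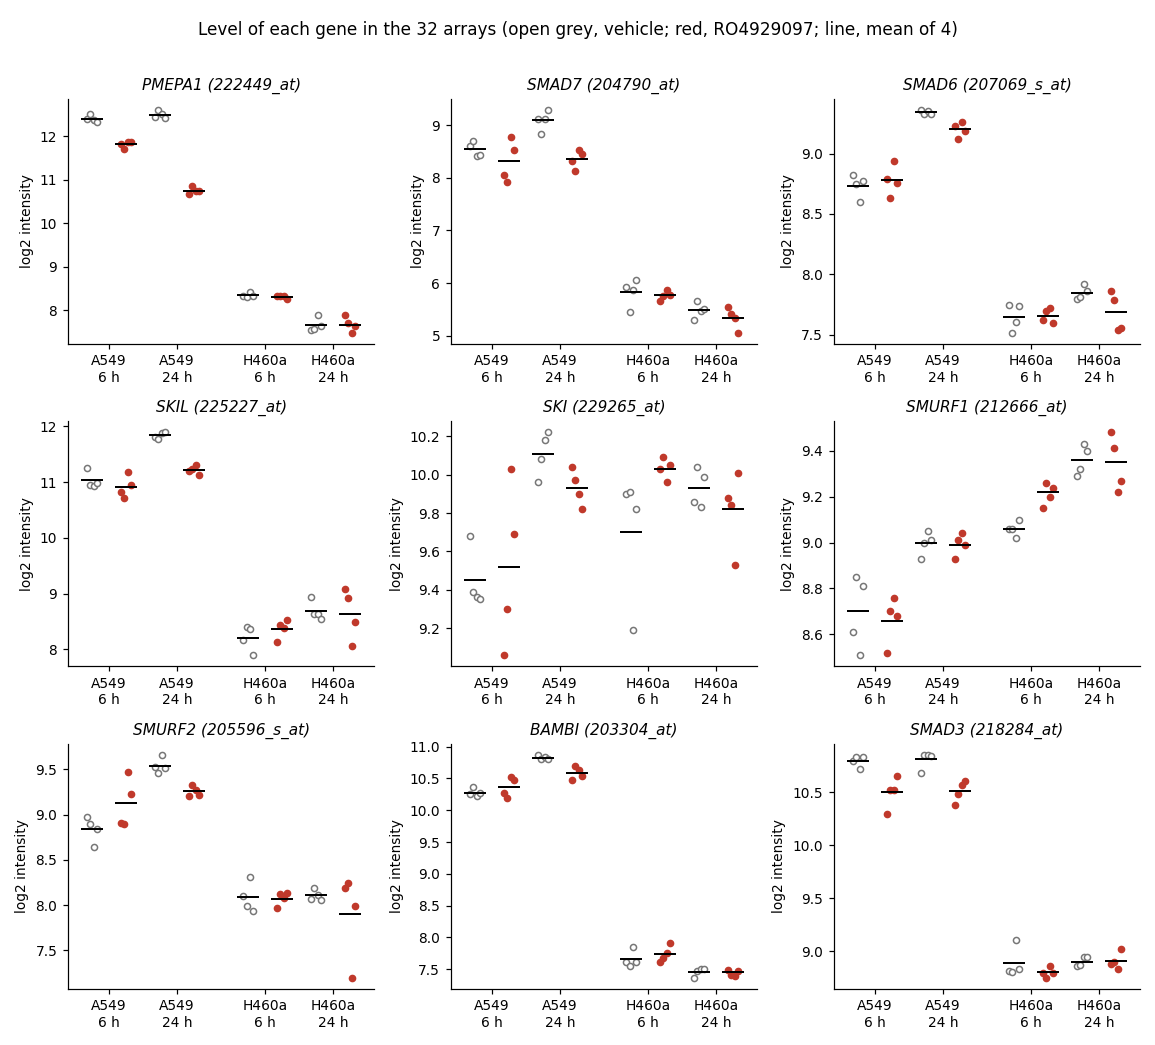
Log2 intensity of the 9 genes, 1 panel a gene, in the 8 groups of line, time and treatment; points are single arrays and bars are group means of 4 arrays. PMEPA1 steps down in A549 from 12.39 in vehicle to 11.81 with RO4929097 at 6 h and from 12.49 to 10.75 at 24 h, and in H460a it lies between 7.49 and 8.43 throughout.

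PMEPA1 fell by 0.58 ± 0.074 at 6 h (95% confidence interval -0.73 to -0.43, limma adjusted p = 2.59e-05), which is 1.5-fold. At 24 h it fell by 1.74 ± 0.074 (-1.89 to -1.59, adjusted p = 2.19e-17), which is 3.35-fold and the fall ranked 2 among all genes. The effect at 24 h minus that at 6 h was -1.16 ± 0.11 (-1.38 to -0.95, adjusted p = 3.77e-08), and PMEPA1 was the only one of the 9 genes to pass this test, where 3.05% of all genes were called lower. In H460a the same test passed for 0 of the 9, where 0.0101% of all genes passed and SKI alone of the 9 had an unadjusted p under 0.05. In quantile-normalized values the PMEPA1 differences were -0.83 at 6 h and -1.76 at 24 h, and the effect at 24 h minus that at 6 h was -0.93 (adjusted p = 2.71e-06). The other 2 PMEPA1 probe sets fell as well, with log2 differences of -0.45 and -0.40 at 6 h and of -1.79 and -1.74 at 24 h.

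In H460a PMEPA1 lay much lower and did not pass with the inhibitor. Vehicle arrays read 8.34, 8.31, 8.43 and 8.32 at 6 h and treated arrays 8.32, 8.33, 8.33 and 8.25. At 24 h vehicle arrays read 7.55, 7.58, 7.89 and 7.63 and treated arrays 7.89, 7.70, 7.49 and 7.63, so the groups overlapped at both times. The difference was -0.04 (-0.19 to 0.11) at 6 h and 0.01 (-0.14 to 0.16) at 24 h. The effect in A549 was lower than that in H460a by -1.76 ± 0.11 at 24 h (limma adjusted p = 4.84e-13). At 6 h the difference between the lines was -0.54 ± 0.11 (adjusted p = 0.0157). It was -0.76 in quantile-normalized values (adjusted p = 0.00025) and passed in 9 of 12 other settings, but not, among others, without treated arrays 3 and 4 of A549 (-0.59, adjusted p = 0.0666) or with the PMEPA1 probe set of largest variance (-0.24, adjusted p = 0.468). PMEPA1 was the only one of the 9 genes whose difference in effect between lines passed, at 6 h against 0.0354% of all genes called lower and at 24 h against 0.273%. At an unadjusted limma p under 0.05 the counts were 2 at 6 h (PMEPA1 and SMAD3) and 5 at 24 h (PMEPA1, SMAD7, SKIL, BAMBI and SMAD3). Some other settings added SKIL or SMAD3 at 24 h, as given with those genes.

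SMAD7, the inhibitory SMAD of the TGF-beta branch, was lower after 24 h in A549. At 24 h its vehicle arrays read 9.12, 8.84, 9.11 and 9.29 and the treated arrays 8.32, 8.13, 8.53 and 8.45, with no overlap. It fell by 0.73 ± 0.14 (-1.01 to -0.45, limma adjusted p = 0.00143), which is 1.66-fold. At 6 h the treated arrays read 8.06, 7.93, 8.77 and 8.53 around vehicle arrays at 8.61, 8.70, 8.41 and 8.44. Treated arrays 1 and 2 lay below all vehicle arrays, and arrays 3 and 4, the ones with mean intensities of 589 and 583, lay among or above them. The 6 h difference was -0.22 ± 0.14 (-0.50 to 0.07, adjusted p = 0.329) with all arrays, -0.33 (adjusted p = 0.171) in quantile-normalized values and -0.54 (adjusted p = 0.3) without arrays 3 and 4, and the part of the intensity in it was not tested further. The effect of RO4929097 on SMAD7 was not shown to differ between 24 h and 6 h (-0.51 ± 0.2, adjusted p = 0.122).

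In H460a SMAD7 lay at 5.06 to 6.06 on all 16 arrays, within the range of the genes not expected in these cells. Its differences there were -0.06 at 6 h and -0.15 at 24 h, neither past the threshold. How small a fall could be detected from that level was not tested. The difference in effect between lines at 24 h was -0.58 ± 0.2 and did not pass (limma adjusted p = 0.258).

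SMAD6, which restrains the BMP branch, did not pass with the inhibitor in either line. In A549 at 24 h its vehicle arrays read 9.36, 9.33, 9.35 and 9.33 and the treated arrays 9.23, 9.12, 9.26 and 9.19. The treated arrays were all lower, yet the difference of -0.14 ± 0.072 (-0.29 to 0.01) did not pass (limma adjusted p = 0.469). At 6 h the SMAD6 difference was 0.04 (-0.07 in quantile-normalized values, neither past the threshold), and in H460a it was 0.00 at 6 h and -0.16 at 24 h (adjusted p = 0.824).

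SKIL, the SnoN corepressor, was lower in A549 at 24 h. Vehicle arrays read 11.81, 11.77, 11.88 and 11.89 and treated arrays 11.20, 11.24, 11.31 and 11.13. The groups were far apart relative to their spread, and SKIL fell by 0.62 ± 0.14 (-0.91 to -0.33, limma adjusted p = 0.0114), or 1.54-fold. At 6 h the vehicle arrays (11.26, 10.95, 10.93 and 10.98) and treated arrays (10.83, 10.71, 11.18 and 10.94) overlapped, with a difference of -0.11 ± 0.14 (adjusted p = 0.657; a difference of -0.32 and an adjusted p of 0.16 in quantile-normalized values). Averaging the 5 SKIL probe sets gave -0.21 at 6 h, which passed (adjusted p = 0.0165). Of those 5 probe sets, 2 fell at 24 h (-0.62 and -0.56). The one at -0.56 read 6.86 in vehicle and 6.30 with RO4929097, within the range of the genes not expected in these cells. A brighter one, at 8.85 and 8.26, gave -0.59 without passing (adjusted p = 0.108). The last 2, which lie near background, gave -0.01 and -0.04.

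In H460a SKIL at 24 h read 8.94, 8.63, 8.64 and 8.55 in vehicle and 9.09, 8.92, 8.06 and 8.50 with RO4929097. Treated array 3, which was also the lowest array of that group for SMURF2 at 7.20, widened the spread to an SD of 0.46. The difference was -0.05 ± 0.14. The effect of RO4929097 on SKIL in A549 minus that in H460a was -0.57 ± 0.2 at 24 h (limma adjusted p = 0.289). It was -0.77 without that array (adjusted p = 0.0234), -0.71 with array weights (adjusted p = 0.0203) and -0.34 with the mean of the SKIL probe sets (adjusted p = 0.0213), all of which passed.

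SKI, the related corepressor, did not pass with the inhibitor in either line. In A549 at 6 h its treated arrays spread from 9.06 and 9.30 to 10.03 and 9.69, with arrays 1 and 2 low and arrays 3 and 4 high as for SMAD7, around a vehicle mean of 9.45 ± 0.16. The SKI difference was 0.07 ± 0.14 with all arrays, -0.06 in quantile-normalized values and -0.27 without arrays 3 and 4, and none of these passed. At 24 h the difference was -0.18 ± 0.14 (-0.47 to 0.12). In H460a at 6 h every treated array (10.03, 10.09, 9.96 and 10.05) lay above every vehicle array (9.90, 9.91, 9.19 and 9.82), with a difference of 0.33 ± 0.14 (limma adjusted p = 0.382). Vehicle array 3, the one with the high actin difference, was the low point, and without it the SKI difference was 0.16 (adjusted p = 0.696).

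The ubiquitin ligases did not pass with RO4929097 in either line. SMURF1 in A549 at 24 h had vehicle arrays at 8.93, 9.00, 9.05 and 9.01 and treated arrays at 8.93, 9.01, 9.04 and 8.99, a difference of -0.00 ± 0.069 (-0.15 to 0.14). At 6 h the SMURF1 difference was -0.03 ± 0.069. It ran from -0.14 to 0.03 over 12 other settings and passed in 0. SMURF2 in A549 at 24 h read 9.53, 9.46, 9.66 and 9.52 in vehicle and 9.21, 9.33, 9.27 and 9.22 with the inhibitor. These 2 groups did not overlap, but the difference of -0.29 ± 0.14 did not pass (limma adjusted p = 0.427; 0.0252 when only the arrays of this comparison entered). At 6 h the SMURF2 difference was 0.29 ± 0.14 (adjusted p = 0.171), with treated arrays 3 and 4 at 9.47 and 9.23 and arrays 1 and 2 at 8.91 and 8.90, 0.18 in quantile-normalized values and 0.06 without arrays 3 and 4. In H460a the differences were 0.16 and -0.01 for SMURF1 and -0.01 and -0.20 for SMURF2 at 6 and 24 h.

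BAMBI, the decoy receptor, was slightly lower in A549 at 24 h without passing. Vehicle arrays read 10.87, 10.81, 10.83 and 10.80 and treated arrays 10.48, 10.69, 10.63 and 10.54, with no overlap. The difference was -0.24 ± 0.074 (-0.39 to -0.09, limma adjusted p = 0.0932). This difference passed in 6 of 11 other settings (limma adjusted p from 0.0154 to 0.18). Among them were quantile scaling of the 32 arrays (-0.24, adjusted p = 0.0217) and leaving out genes under the median level (adjusted p = 0.0487). Another was leaving out the 3 arrays that stand apart (adjusted p = 0.0154), a choice made after seeing the data. In 8 fits that each left out a single array of the comparison it passed in 0 (adjusted p from 0.0814 to 0.242). At 6 h the BAMBI difference was 0.09 (-0.07 in quantile-normalized values, neither past the threshold), and in H460a it was 0.08 and -0.02.

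SMAD3, which carries the signal that the others restrain, was lower in A549 at both times, by the same amount in the values as deposited. At 6 h its vehicle arrays read 10.79, 10.83, 10.72 and 10.83 and treated arrays 10.29, 10.52, 10.52 and 10.65. At 24 h they read 10.68, 10.85, 10.85 and 10.84 in vehicle and 10.38, 10.48, 10.57 and 10.60 with RO4929097. No treated array reached the lowest vehicle array at either time. SMAD3 fell by 0.30 ± 0.072 at 6 h (limma adjusted p = 0.00887) and by 0.30 ± 0.072 at 24 h (adjusted p = 0.0153), or 1.23-fold, and the difference between these falls was -0.00 ± 0.1 (-0.21 to 0.21). Over 12 other settings that difference ran from -0.02 to 0.18 and passed in 0.

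These SMAD3 falls are close to the threshold. The 24 h call was lost in 5 of 8 fits that left out 1 array (without vehicle array 2, 3 or 4 or treated array 1 or 2, with adjusted p up to 0.0747). The 6 h call was lost without treated array 3 (limma adjusted p = 0.0516) and without treated arrays 3 and 4 (-0.39, adjusted p = 0.0786). After quantile scaling of the 32 arrays the SMAD3 differences were -0.48 at 6 h (adjusted p = 5.92e-06) and -0.30 at 24 h (adjusted p = 0.00124). Its 4 probe sets gave -0.30, -0.29, -0.30 and -0.22 at 24 h, and 1 of the 4 passed. All 4 had treated arrays below vehicle arrays, where 5.14% of all genes did so. In H460a the SMAD3 difference was -0.09 at 6 h and 0.00 at 24 h, and the effect in A549 minus that in H460a at 24 h was -0.31 ± 0.1 (adjusted p = 0.247; 0.0405 after quantile scaling of the 32 arrays). That line difference rests on the brightest probe set: the other 3 gave -0.30, -0.18 and -0.21 in H460a at 24 h, none past the threshold, and differences between the lines of 0.01, -0.11 and -0.00. For the one at -0.21 the treated H460a arrays (8.19 to 8.31) lay wholly below the vehicle arrays (8.43 to 8.53), where 1.56% of all genes did so.

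Counted together, 4 of the 9 genes fell in A549 at 24 h (PMEPA1, SMAD7, SKIL and SMAD3) and 0 rose, where 0.885% of all genes fell and 1.32% rose. Their median difference was -0.29, against 0.007 over all genes. Treated arrays lay wholly below vehicle arrays for 7 of the 9 genes, where 5.14% of all genes did so. At 6 h 2 of the 9 fell (PMEPA1 and SMAD3), where 1.51% of all genes fell, and the same 2 genes had treated arrays wholly below vehicle arrays, where 2.96% of all genes did. The median was -0.03 against 0.021. In all 2301 genes rose and 299 fell in that comparison, against 265 and 292 after quantile scaling of the 32 arrays. By probe set, 5 of 30 fell at 6 h and 7 of 30 at 24 h, against 0.696% and 0.489% of the 54613 probe sets tested. In H460a limma called 0 of the 9 at either time, where 0.0961% and 0.00506% of all genes passed. At an unadjusted p under 0.05 the counts there were 2 (SKI and SMURF1) and 1 (SMAD6). SKI and SMURF1 had treated arrays wholly above vehicle arrays in H460a at 6 h, 2 of the 9, where 4.34% of all genes did. The 6 h and 24 h groups of a line are separate arrays, each time with its own vehicle.

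**Figure D2:**
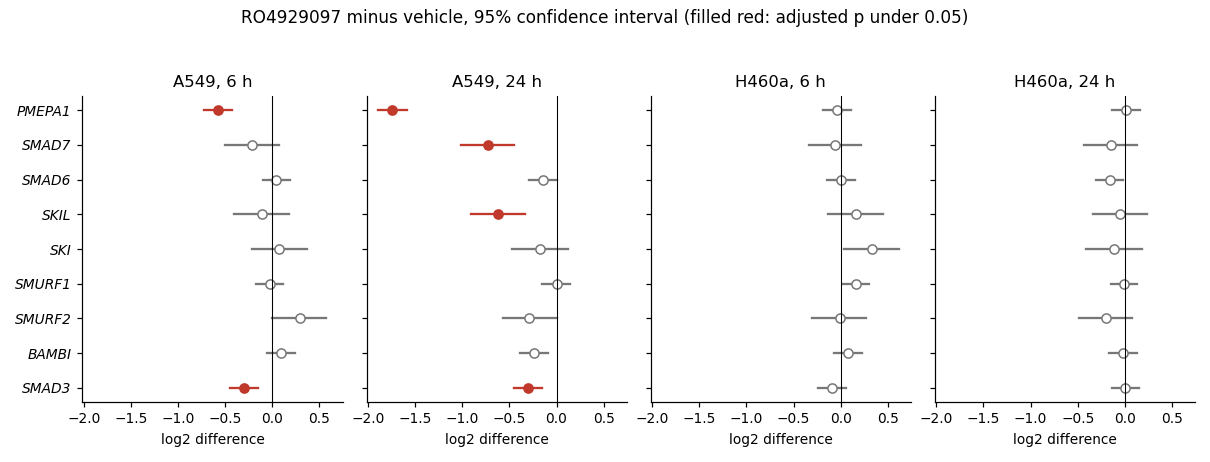
Log2 difference, RO4929097 minus vehicle, of each gene in A549 and H460a at 6 and 24 h, with 95% confidence intervals from limma; filled points have an adjusted p under 0.05. In A549 PMEPA1 stands at -0.58 and -1.74, SMAD7 and SKIL at -0.73 and -0.62 at 24 h, and in H460a no interval point is filled.

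**Figure D3:**
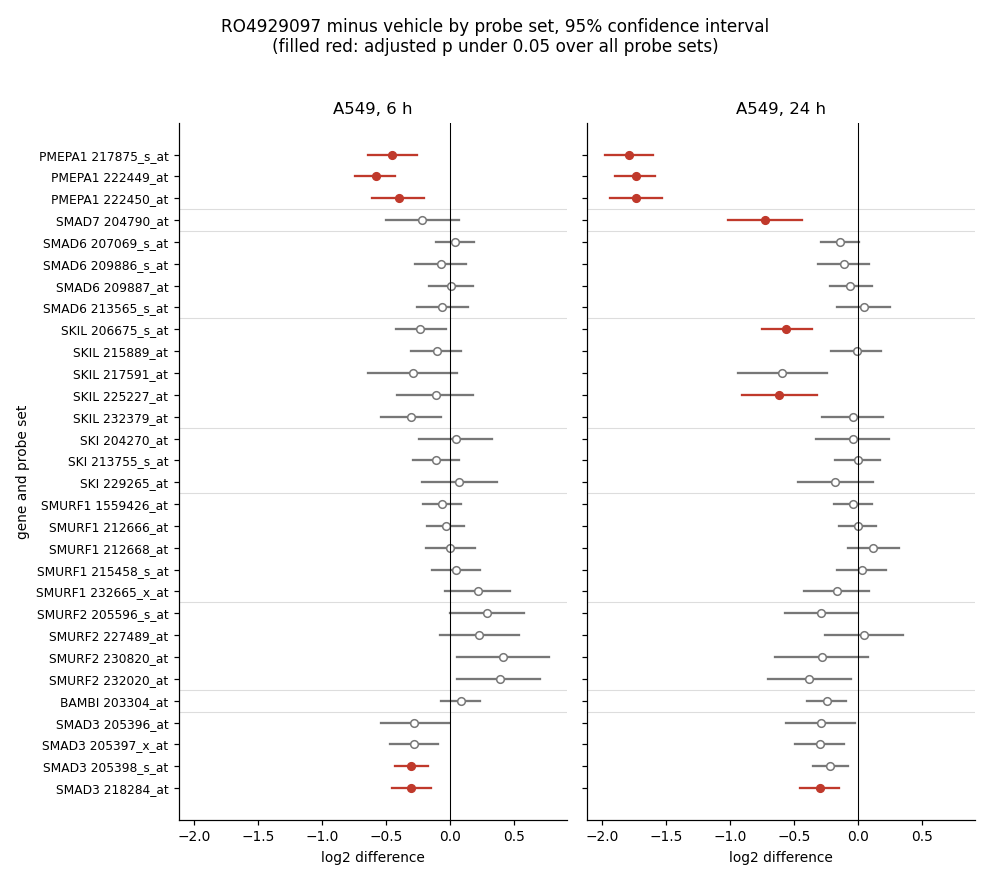
Log2 difference, RO4929097 minus vehicle, of the 30 probe sets of the 9 genes in A549 at 6 and 24 h; filled points have an adjusted p under 0.05 over 54613 probe sets. The 3 PMEPA1 probe sets lie together near -1.79 to -1.74 at 24 h, and the SKIL probe sets divide between -0.62 and -0.01.

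Elsewhere in the pathway in A549 at 24 h, where 0.885% of all genes fell and 1.32% rose, targets held the most falls. Of 11 ligands 2 fell, BMP6 (-0.69) and BMP2 (-0.48), and of 10 receptors and coreceptors 2 fell, the type I receptors TGFBR1 (-0.84 ± 0.086, limma adjusted p = 7.06e-08) and ACVR1 (-0.29). Of 5 other SMADs, 10 extracellular controls and 12 other intracellular modulators 0 passed in either direction. Of 28 target genes of TGF-beta or BMP signalling 13 fell and 0 rose, with a median of -0.28 against 0.007 over all genes. The lists were written with earlier results of these data known, so these counts are a description and no independent test. The largest of these falls were those of TNFAIP6, which binds hyaluronan (-1.72), the proteoglycan SPOCK1 (-1.06), the repressor SNAI2 (-0.91), the early TGF-beta gene KLF10 (-0.83) and the AP-1 subunit JUNB (-0.81). SNAI2 read 6.41 in vehicle and 5.50 with RO4929097, both within the range of the genes not expected in these cells. TNFAIP6 went from 7.15, just above that range, to 5.43, within it.

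At 6 h in A549 these lists held more rises than falls. Of 11 ligands 1 rose, and of 10 receptors and coreceptors 3 rose (TGFBR2 0.45, BMPR1B 0.47 and TGFBR3 0.33). Of 5 other SMADs 1 rose (SMAD2, 0.22), of 10 extracellular controls 1 (FST, 0.30) and of 12 other modulators 6. These 5 lists held 0 falls. These rises belong to the comparison in which 11.6% of all genes rose and treated arrays 3 and 4 had mean intensities of 589 and 583; without those arrays 3 genes of all tested rose and 7 fell. Of 28 targets 4 fell, where 1.51% of all genes fell: JUNB (-0.71), SNAI2 (-0.68, near background at 24 h), SNAI1 (-0.62) and ANGPTL4 (-0.58). Another 4 targets rose, among them ID2 (0.62), which then fell at 24 h (-0.60). The values of single genes given here are from the deposited scaling with all arrays. In H460a 1 ligand, GDF15 (0.46), rose at 6 h, where 0.0961% of all genes passed, and nothing else in these lists passed at either time.

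The lines differed in the level of most of these genes before any inhibitor. In vehicle, over both times, 7 of the 9 were higher in A549 than in H460a and 1 was lower, where 28.8% of all genes were higher and 27.9% lower. PMEPA1 was higher in A549 by 4.44 ± 0.053 (21.6-fold), SMAD7 by 3.16 ± 0.098, SKIL by 2.99 ± 0.1 and BAMBI by 2.99 ± 0.053. SMAD3 was higher by 1.91, SMAD6 by 1.29 and SMURF2 by 1.09, and limma's adjusted p was at most 1.1e-11 for these 7. Other summaries of the probe sets moved some of these values: the PMEPA1 probe set of largest variance gave 5.56, and the mean of probe sets gave 1.35 for SKIL and 0.49 for SMAD6, all past the threshold. As H460a SMAD7 lay near background, its difference is a lower limit. SMURF1 was lower in A549 (-0.36, adjusted p = 6.46e-08), and SKI was at 9.78 and 9.82 (-0.04, adjusted p = 0.78).

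Over all 16 arrays of a line, treated ones included, the ranges of the lines did not overlap for those 7 genes. PMEPA1 ran from 10.66 to 12.60 in A549 and from 7.49 to 8.43 in H460a, so the lowest A549 array after 24 h of RO4929097 still lay above every H460a array. SKIL ran from 10.71 to 11.89 and from 7.90 to 9.09, and BAMBI from 10.19 to 10.87 and from 7.37 to 7.92. SKI and SMURF1 overlapped, at 9.06 to 10.22 against 9.19 to 10.09 and 8.51 to 9.05 against 9.02 to 9.48. Ordered by level, PMEPA1 went from A549 vehicle at 24 h (12.49) and 6 h (12.39), which overlapped, to A549 treated at 6 h (11.81) and 24 h (10.75), then H460a at 6 h (vehicle 8.35, treated 8.31, overlapping) and at 24 h (treated 7.67, vehicle 7.66, overlapping).

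Time in vehicle also moved these genes. In A549 7 of the 9 were higher at 24 h than at 6 h, where 29.2% of all genes were: SKIL by 0.81, SMURF2 by 0.71, SKI by 0.67, SMAD6 by 0.61, SMAD7 and BAMBI by 0.55 each, and SMURF1 by 0.30. PMEPA1 (0.10, limma adjusted p = 0.285) and SMAD3 (0.01, adjusted p = 0.895) did not pass. The mean of the 3 PMEPA1 probe sets did, at 0.21 (adjusted p = 0.0122), 1 of them having risen by 0.45. The SMAD6 rise rests on 1 probe set: the other 3 gave -0.06, -0.08 and -0.15, and the mean of the 4 was 0.08 (adjusted p = 0.17). SKI rose in 1 of 3 probe sets, SMURF1 in 1 of 5 and SMURF2 in 4 of 4. SKIL rose in 2 of 5 and fell in 1 (-0.30). With the mean of its probe sets SMURF1 no longer passed. By probe set 12 of 30 rose and 1 fell, where 20% of all probe sets rose and 12.1% fell. The 6 h vehicle arrays of A549 were the dim ones, at 468 to 496 against 584 to 597 at 24 h. After quantile normalization over all arrays the rises were smaller, SKIL by 0.48, SMURF2 by 0.52, SKI by 0.43, SMAD6 by 0.43, SMAD7 by 0.39 and BAMBI by 0.28, and all 6 still passed. SMURF1 (0.11, adjusted p = 0.108) no longer did. PMEPA1 (-0.30, adjusted p = 0.00176) and SMAD3 (-0.29, adjusted p = 0.000196) were then lower at 24 h, so the direction for these 2 depends on the scaling. Over all genes the split was 5766 higher and 2965 lower as deposited, and 3277 and 4370 after quantile normalization.

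In H460a vehicle 3 of the 9 were higher at 24 h, where 15.1% of all genes were, and 2 were lower, where 15.3% were. PMEPA1 fell by 0.69 ± 0.074 (limma adjusted p = 5.11e-09), with 4 arrays from 8.31 to 8.43 at 6 h and from 7.55 to 7.89 at 24 h. BAMBI fell by 0.19 (adjusted p = 0.0471), a call kept in 5 of 10 other settings (adjusted p from 0.0141 to 0.136). SMAD7, near background in this line, gave -0.34 without passing (adjusted p = 0.0607), and passed in 3 of 9 other settings. SKIL rose by 0.48 (adjusted p = 0.00912), SMURF1 by 0.30 and SMAD6 by 0.19, though with the mean of the 5 SKIL probe sets the rise was 0.03 (adjusted p = 0.737). The SMAD6 call was kept in 7 of 10 other settings (adjusted p from 0.018 to 0.0798) and the SMURF1 call in 9 of 10 (1.94e-05 to 0.0594). All 3 PMEPA1 probe sets fell, with differences of -0.69, -0.69 and -0.41. The 6 and 24 h vehicle arrays of H460a had like mean intensities, 595 to 602 and 593 to 601. Whether the change with time in vehicle differed between the lines was not tested.

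**Figure D4:**
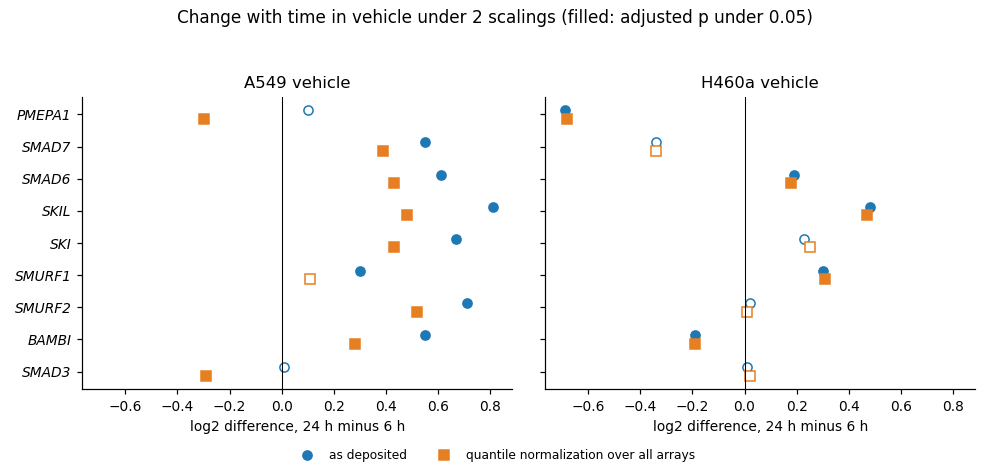
Log2 difference, 24 h minus 6 h, of each gene in vehicle arrays of A549 and H460a, as deposited (circles) and after quantile normalization over all arrays (squares); filled symbols have an adjusted p under 0.05. In A549 PMEPA1 moves from 0.10 to -0.30 and SMAD3 from 0.01 to -0.29 between the scalings, and in H460a the paired symbols lie close together.

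Patterns over the arrays were compared as Pearson's r over 32 arrays with each line's mean subtracted, a description in which the arrays share groups, line and intensity. Closest to PMEPA1 were PLEK2 (0.85), TGFBR1 (0.85), NPR3 (0.84), PID1 (0.83) and NPTX1 (0.80). Closest to SMAD7 were SGK1 (0.78), INSL4 (0.76), MREG (0.76), STK17A (0.74) and TACC2 (0.74). SKIL was followed most closely by KLF10 (0.93), NHS (0.90), WDR11 (0.89), SGMS1 (0.88) and ELK3 (0.88). Among the members, over the 16 arrays of each line, SMAD7 and SKIL had r = 0.84 in A549 and -0.47 in H460a, and PMEPA1 and SMAD3 had 0.72 and -0.23. PMEPA1 and SMAD7 had 0.55 and 0.77, and PMEPA1 and BAMBI 0.02 in A549 and 0.80 in H460a. SMAD7 lay near background in H460a. The highest r between members in A549 were those of SMURF2 and BAMBI (0.93), SMAD6 and BAMBI (0.91) and SKI and SMURF2 (0.90). In H460a these pairs had 0.34, -0.33 and 0.17.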

How the data were processed

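Per the submitters' processing notes the authors made the intensity values with RMA, of a version not given in the sources used here. Those deposited values were on a linear scale and were taken to log2 here, with no further scaling. Probe sets that are controls (62), carry several symbols (1801) or none (11721) were left out of gene tests; the 41091 others gave 19775 genes, each read by its probe set of highest mean. No symbol differed from the RefSeq table. limma 3.58.1 in R 4.3.3 fitted 8 group means to all 32 arrays, with Benjamini-Hochberg adjustment over all genes, and a second fit over 54613 probe sets. The median SE of a difference between 2 groups of 4 arrays was 0.087, a precision limited by how many arrays there were. The fit was tested on simulated data. Figures used matplotlib 3.10.9. The rule for naming took the 9 members, 4 Notch targets as a check, up to 5 genes of each pathway list and the 5 genes most alike 3 members. Members, lists and tests were chosen with earlier results of these data known. Alternatives were other scalings, probe set rules, fits and left-out arrays. Same-numbered arrays were not treated as pairs.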

Additional observations from a re-analysis of the deposited data

Results flagged for a closer look

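The effect of RO4929097 on PMEPA1 differed between A549 and H460a by -0.54 at 6 h (limma adjusted p = 0.0157, past the threshold in 9 of 12 other settings for PMEPA1) and by -1.76 at 24 h (adjusted p = 4.84e-13). In A549 it differed between 24 h and 6 h by -1.16 (adjusted p = 3.77e-08). These were 3 of the 36 tests of a difference in effect over the 9 genes, and the others did not pass.

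In 5 of 72 groups of 4 arrays 1 array lay far from the others, and chance alone marks about 1 in 20 groups. PMEPA1 in H460a with RO4929097 at 6 h read 8.25 on array 4 against 8.32 to 8.33. SKI in A549 vehicle at 6 h read 9.68 on array 1 against 9.35 to 9.39, and SMAD3 in A549 vehicle at 24 h read 10.68 on array 1 against 10.84 to 10.85. H460a vehicle array 3 at 6 h, the array with the actin 3'-5' difference of 2.19, was low for SKI (9.19 against 9.82 to 9.91) and high for SMAD3 (9.10 against 8.80 to 8.83).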

How the results depend on the processing

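Counts of the 9 genes past the threshold ran as follows. In A549 at 24 h the count of 4 ran from 3 (probe set of largest variance, SMAD3 lost) to 6 (only the arrays of the comparison, BAMBI and SMURF2 added). In A549 at 6 h the count of 2 became 1 without treated arrays 3 and 4 and with only the arrays of the comparison, and 3 with the mean of probe sets (SKIL added). In A549 vehicle the count of 7 with time, all of them rises, ran from 6 to 8. The 8, with both quantile normalizations, included PMEPA1 and SMAD3 as falls and no longer SMURF1. For the effect in A549 minus that in H460a, the 6 h count of 1 became 0 with the probe set of largest variance, without treated arrays 3 and 4, and with the replicate number as a block; the 24 h count of 1 became 2 with both quantile normalizations and the mean of probe sets, and 3 with array weights. For the effect in A549 at 24 h minus 6 h, 1 became 2 with genes under the median level left out and with array weights, and 3 with only the arrays of the comparison. In H460a vehicle the count of 5 with time became 3 with centring, the mean of probe sets and the arrays of the comparison alone. SMAD7 was added there, as lower, with quantile normalization within each line, with array weights and without the 3 arrays that stand apart. The cause was not tested. Leaving out 1 array gave 1 to 2 in A549 at 6 h, 3 to 4 at 24 h, 1 to 4 for 24 h minus 6 h, 1 to 2 for the line difference at 24 h, and 3 to 5 in H460a vehicle.

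PMEPA1 in A549 vehicle, 24 h minus 6 h, turned to -0.30 and -0.31 when quantiles were equalized over all arrays or within a line, and SMAD3 to -0.29 and -0.28. SMAD7 lay under the median level and had no value when such genes were left out. Of the single-gene values recomputed, 1756 kept direction and side of the threshold, 27 passed that had not, 26 no longer passed, 4 reversed and 129 others moved.

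Whether replicate numbers mark pairs of arrays was not settled. Same-numbered deviations had r from -0.35 to 0.32 over 16 pairs, 5 of them over 0.1. Of the 16, 6 matched their own number best. With the block, PMEPA1 in A549 gave -0.58 at 6 h and -1.74 at 24 h, and its line difference at 6 h was -0.54 (limma adjusted p = 0.104). The block could not be fitted for the vehicle comparisons. Omission of the 3 arrays that stand apart was chosen after seeing the data.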
